A study of Mus musculus with 6 samples.

Results

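The 9 genes described here carry dopamine from its synthesis to its breakdown. They are grouped by that known role, not by a measured value, and all 9 were found by symbol among the 24054 genes of the deposited table. Th, Ddc and Gch1 serve synthesis, Slc18a2 and Slc10a4 the synaptic vesicle, Slc6a3 reuptake, Drd2 feedback, and Maoa and Maob breakdown. Poly(A) RNA-seq was done on the SN (substantia nigra) of 3 MitoParks and 3 littermate controls, aged 16 to 17 weeks. By the methods, MitoParks were Dat +/Cre and TFAM LoxP/LoxP, so that Tfam, the gene of mitochondrial transcription factor A, is deleted only in cells that switch on the dopamine transporter gene. Littermate controls were TFAM +/LoxP and Dat +/+, so they carried 1 floxed copy of Tfam and no Cre, and came from MitoPark or parental strain litters. MitoParks also carried Cre at 1 copy of Slc6a3 itself, and both groups were on a C57BL/6 background and untreated. The labels give the tissue only as brain, and give no sex for single mice.

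Dopamine is made from tyrosine by tyrosine hydroxylase (Th), which needs the cofactor tetrahydrobiopterin (BH4), and then by aromatic L-amino acid decarboxylase (Ddc). It is packed into vesicles, released, taken back up by the dopamine transporter and degraded by monoamine oxidases and other enzymes. Loss of the nigral neurons that do this is the hallmark of Parkinson's disease, and of the 9 genes Slc6a3 is the one used most narrowly by dopaminergic (DAergic) neurons. Serotonin neurons also use Ddc, Slc18a2 and the BH4 enzyme Gch1, and glia use Maob.

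The DNA just before the start of transcription is shown for Slc6a3, the gene that differed, and for Th, Ddc and Slc18a2, the genes of the same neurons it was compared with. Each stretch is the 120 bases upstream of a RefSeq start on GRCm38.p6, written 5′ to 3′ along the gene, and capitals mark every match to a searched motif. Ddc has another RefSeq start, whose window held no match and is not printed. Which Ddc start was used in this tissue was not tested.

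Th, chr7:142899996-142900115, minus strand: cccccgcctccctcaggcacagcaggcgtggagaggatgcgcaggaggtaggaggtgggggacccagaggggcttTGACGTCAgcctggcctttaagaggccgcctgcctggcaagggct
Ddc, chr11:11898145-11898264, minus strand: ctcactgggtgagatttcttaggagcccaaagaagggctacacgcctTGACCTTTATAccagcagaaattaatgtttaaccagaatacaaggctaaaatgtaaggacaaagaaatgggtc
Slc18a2, chr19:59260758-59260877, plus strand: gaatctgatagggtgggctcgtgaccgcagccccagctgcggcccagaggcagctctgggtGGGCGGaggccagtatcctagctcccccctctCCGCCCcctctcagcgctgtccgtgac
Slc6a3, chr13:73536627-73536746, plus strand: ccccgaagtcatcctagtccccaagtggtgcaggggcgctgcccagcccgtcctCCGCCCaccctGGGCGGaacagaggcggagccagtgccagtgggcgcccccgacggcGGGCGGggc

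The motifs named here were searched on both strands in the 300-base windows of the RefSeq table, which reach 50 bases past the start. The cAMP response element (TGACGTCA) was present in Th, 45 bases upstream of the start, and in Slc18a2, where it straddles the start and so runs past the printed stretch. Of all 32851 windows, 1.79% held it. The NBRE (AAAGGTCA), the motif of Nr4a-family nuclear receptors, was found in 1 of the 2 Ddc windows, where its reverse TGACCTTT shares bases with a match to TATAAA, and 1.51% of all windows held it. TATAAA itself was matched in Ddc and Gch1 (13.6% of all windows). The GC box (GGGCGG) was matched in Th, Gch1, Slc18a2, Slc6a3, Drd2, Maoa and Slc10a4, and in 35.7% of all windows. The bicoid-type motif (TAATCC) was matched in no window of the 9 genes and in 7.06% of all windows. Windows were found for 8 of the 9 genes, and Maob had none. These matches are descriptions of sequence and show no binding.

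The libraries held between 8140777 and 10528602 expected counts, and 3 counts came to between 0.285 and 0.365 CPM (counts scaled to the library total after TMM normalization, the unit of all levels given here). Littermate control 3 stood apart in DAergic transcripts. The summed level of 10 other DAergic neuron markers, of which 6 are also among the transcription factor genes described later, was 831 CPM there, against 294 and 402 CPM in the other littermate controls and 208 to 418 CPM in MitoParks. Its 4 oligodendrocyte markers summed to 16500 CPM, where the other 5 libraries held 6130 to 14000 CPM. MitoPark 3 held serotonin neuron transcripts, with 206 counts of Tph2, the serotonin synthesis enzyme, against 2 to 8 in the other mice. Littermate control 1 and MitoPark 2 held reads of 4 Y-linked genes, at 207 and 271 CPM, and the other libraries held 0.286 CPM or less. All 4 noradrenaline neuron markers, Dbh and Slc6a2 among them, had 3 counts or fewer in every mouse. What these differences contributed to the results was not tested beyond the values given without the libraries concerned. Littermate controls held 40.3, 44.3 and 45.4 CPM of Tfam and MitoParks 32.6, 33.0 and 33.2 CPM. Every MitoPark lay below every littermate control, as for 2.29% of all genes tested, in the direction of the genotypes the methods give. The log2 fold change was -0.40 (standard error 0.11, unadjusted p = 0.00565, adjusted p = 0.999 by edgeR's quasi-likelihood test). Tfam was not called by the cutoffs given below, since its fold of 0.76 fell short of the cutoff on fold. How much of this tissue level comes from the deleted cells was not tested.

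One of the 9 genes, Slc6a3, was lower in MitoParks past the cutoffs used here (a fold above 1.5 at a p under 0.05, taken as unadjusted), and none was higher. Across all 14568 genes tested, 0.577% passed these cutoffs in either direction and 0.199% as lower. All 9 genes passed the filter on low counts. Each of the 9 estimates was below 0, as were 7491 of the 14568 over all genes tested, and those of Gch1 (-0.0038) and Maoa (-0.045) were near 0. The median log2 fold change of the 9 was -0.57, against -0.0047 over all genes tested. Without littermate control 3, 6 of the 9 estimates were below 0, the median was -0.039, and Slc6a3 was again the 1 gene called, where 1.5% of all genes passed. Only Slc6a3 among the 9 had groups that were fully apart, beside 4.71% of all genes. No gene of the table had an adjusted p below 0.05 in edgeR's quasi-likelihood fit, where 161 genes had an unadjusted p below 0.05. DESeq2 also gave 0, and the exact and likelihood ratio tests of edgeR gave 1 gene, outside the 9. In tissue RNA, fewer DAergic neurons and less RNA per neuron cannot be told apart.

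**Figure D1:**
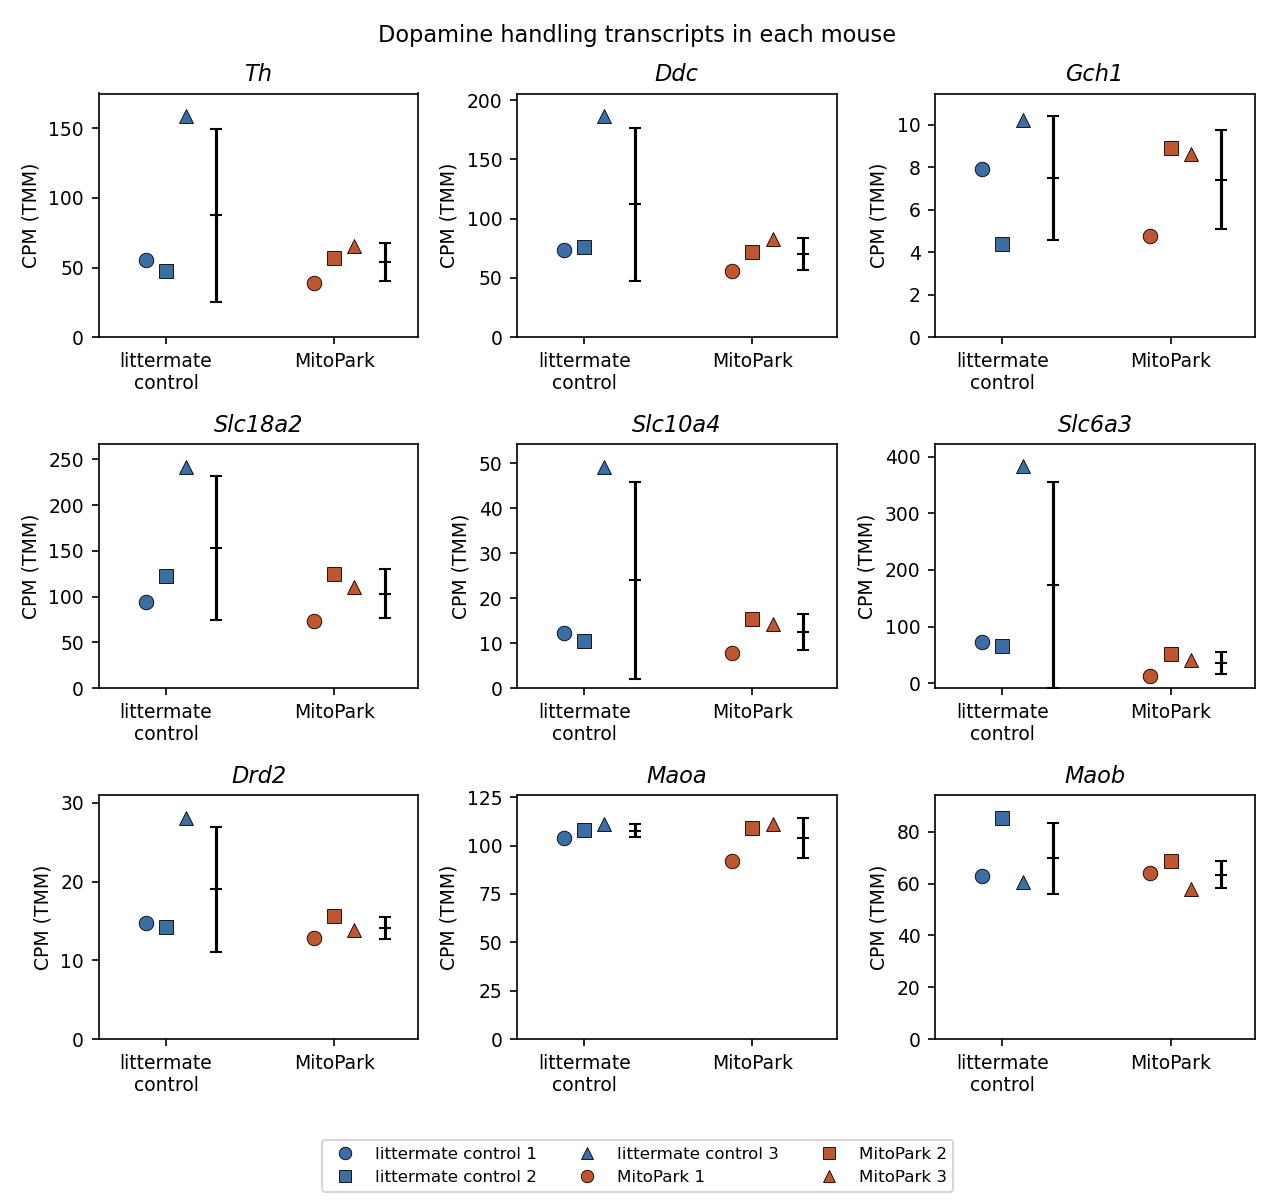
TMM-normalized CPM of the 9 genes in each mouse, 1 panel per gene, with littermate controls in blue and MitoParks in orange, symbols for the mouse number, and a dash with bars for mean and SD (n = 3) beside each group. Littermate control 3 is the highest mouse for 7 genes and in Slc6a3 reaches 383 CPM, while Maoa stays between 92.2 and 111 CPM.

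For synthesis, littermate controls 1, 2 and 3 held 55.6, 47.4 and 159 CPM of Th, the gene of the rate-limiting enzyme. MitoParks 1, 2 and 3 held 39.0, 57.0 and 65.5 CPM. MitoParks 2 and 3 thus lay above littermate controls 1 and 2, and only littermate control 3 lay above all MitoParks. The log2 fold change of Th was -0.70 (95% interval -1.63 to 0.23, unadjusted p = 0.123, adjusted p = 0.999) and it did not pass the cutoffs. Leaving out littermate control 3 brought it to 0.066, with an interval of -0.37 to 0.51.

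The enzyme encoded by Ddc converts L-DOPA to dopamine. Its transcript reached 73.4, 75.9 and 187 CPM in the littermate controls, against 56.0, 72.3 and 83.0 CPM in the MitoParks. The groups overlapped through MitoPark 3, the library with serotonin neuron transcripts. The part of serotonin neurons in this overlap was not tested. The log2 fold change of Ddc was -0.67 (95% interval -1.42 to 0.079, unadjusted p = 0.0738, adjusted p = 0.999). It was -0.083 without littermate control 3 and -0.81 without MitoPark 3, and neither fit called it.

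Gch1 encodes the first enzyme of BH4 synthesis and was the lowest of the 9 genes, with 39 to 104 counts per mouse. Littermate controls had 7.9, 4.37 and 10.2 CPM of it, and MitoParks had 4.75, 8.89 and 8.61 CPM. The groups were fully interleaved, at 0.997 times the control level with a 95% interval of 0.589 to 1.69, so a change within that interval was not detectable with this spread. Of 7 other genes of BH4 synthesis and recycling, 6 were tested and none passed the cutoffs, with a median log2 fold change of -0.094. Pcbd2 and Spr were at log2 fold changes of -0.20 and -0.12 (unadjusted p = 0.382 and 0.493). Qdpr, which regenerates BH4, had the most counts of the list, at 1992 to 4464 per mouse.

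For storage, Slc18a2 encodes VMAT2, the transporter that loads dopamine and other monoamines into vesicles. From mouse 1 to mouse 3, littermate controls held 93.6, 123 and 242 CPM and MitoParks 73.3, 125 and 111 CPM. MitoPark 1 was the lowest mouse and littermate control 3 the highest, and the other 4 overlapped. The log2 fold change was -0.57 (95% interval -1.29 to 0.16, unadjusted p = 0.112), and -0.069 without littermate control 3.

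Slc10a4 encodes an orphan carrier found on vesicles of monoamine and cholinergic neurons. In the same order, it measured 12.3, 10.4 and 49.2 CPM among littermate controls, and 7.92, 15.4 and 14.3 CPM among MitoParks. Littermate control 3 was 4.32 times the mean of the other littermate controls, and MitoParks 2 and 3 lay above both of those. The log2 fold change of -0.94 (95% interval -2.15 to 0.28, unadjusted p = 0.116) became 0.14 without littermate control 3. Of 4 cholinergic neuron markers, 3 were tested and none passed the cutoffs. The summed level of the 4 was lowest, at 8.01 CPM, in littermate control 3. Isl1 held 4.1 CPM there, against 14.9 to 30.5 CPM in the other mice. Slc5a7 and Slc18a3 were also lowest there and Chat was not, and Chat and Slc18a3 had 20 counts or fewer in every mouse. The part of cholinergic neurons in the Slc10a4 level was not tested.

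For reuptake, Slc6a3 encodes the dopamine transporter, the protein that returns released dopamine to the nerve ending. Littermate controls 1, 2 and 3 held 72.5, 65.2 and 383 CPM of it, from 652, 687 and 3922 counts. MitoParks 1, 2 and 3 held 13.3, 51.0 and 40.9 CPM, from 109, 505 and 361 counts. Every MitoPark was below every littermate control, with MitoPark 2 the nearest. The groups did not overlap in this direction for 2.29% of all genes tested. The log2 fold change was -2.30 (standard error 0.70, 95% interval -3.88 to -0.73, unadjusted p = 0.00895, adjusted p = 0.999 by edgeR's quasi-likelihood test). Without littermate control 3 it was -0.97 (95% interval -1.77 to -0.16, unadjusted p = 0.023). In that same fit 2 of 5 astrocyte markers passed the cutoffs as higher in MitoParks, Gfap (log2 fold change 1.09, unadjusted p = 0.00135) and Aqp4 (0.78, unadjusted p = 0.0213). All 4 oligodendrocyte markers had estimates above 0 and an unadjusted p under 0.05 there, and Mbp (0.63, unadjusted p = 0.0277) also passed the cutoff on fold. The part of these shifts in the Slc6a3 value was not tested. In the 4 libraries without Y-linked reads it was -3.03 (unadjusted p = 0.014), and with a term for such reads it was -2.22 (unadjusted p = 0.0259), while the libraries with them, 1 per group, allow no test of their own. With robust dispersion estimates the unadjusted p was 0.0859 and the gene was not called. An exact permutation test of 3 against 3 mice gave p = 0.1, the smallest it can give. Since MitoParks carry Cre at 1 Slc6a3 copy, the modified copy and the loss of Tfam cannot be told apart as sources of this difference.

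**Figure D2:**
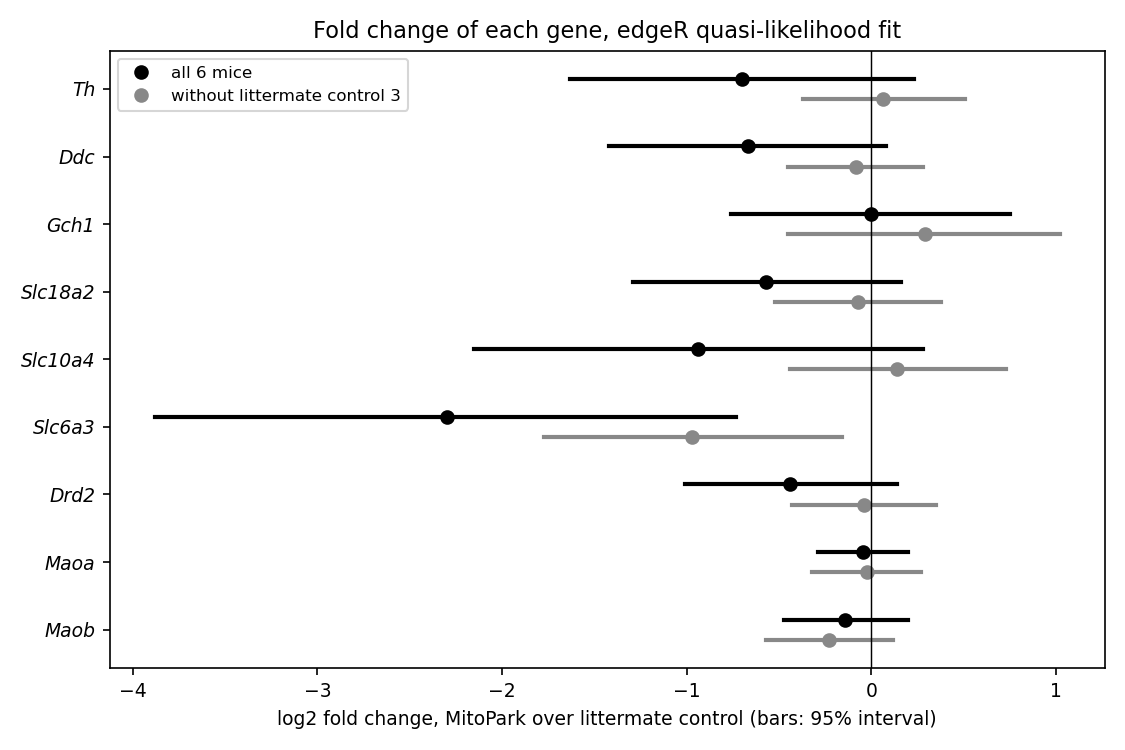
Log2 fold change of each gene, MitoPark over littermate control, from edgeR's quasi-likelihood fit with 95% intervals, for all 6 mice in black and without littermate control 3 in grey. Slc6a3 is the gene whose interval excludes 0 in both fits, at -2.30 and -0.97, while the other 8 intervals include 0.

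Slc6a3 was then set against Th, another transcript of DAergic neurons, in the same mouse. The ratio was highest in littermate control 3, the library with the most DAergic marker RNA, and whether the share or mix of DAergic neurons moves it was not tested. The ratio of Slc6a3 to Th was 1.3, 1.38 and 2.4 in littermate controls 1, 2 and 3. It was 0.341, 0.895 and 0.625 in MitoParks 1, 2 and 3, so every MitoPark again lay below every littermate control. The mean log2 ratio was lower in MitoParks (log2 difference -1.5, standard error 0.49, n = 3 per group; exact two-sided permutation test, p = 0.1). After Benjamini-Hochberg adjustment over 8 ratios the exact permutation p was 0.8. The log2 difference was -1.22 without littermate control 3, and leaving out any 1 mouse kept it between -1.81 and -1.12. Over all other genes tested, 0.0137% had a ratio to Th that was lower in MitoParks without overlap. This share is no measure of rarity, since Th in littermate control 3 was 3.09 times the mean of the other littermate controls, which lowers the ratio there of any gene not raised with it. The genes were 2, Slc6a3 and Pitx3, a transcription factor gene of midbrain DAergic neurons, whose counts were 5, 5 and 38 among littermate controls, against 0, 5 and 4 among MitoParks.

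None of the 7 other genes had a ratio to Th that separated the groups. Ddc was at 1.32, 1.6 and 1.18 times Th in littermate controls and 1.44, 1.27 and 1.27 times Th in MitoParks, a log2 difference of -0.035 (standard error 0.14, n = 3 per group). The ratio of Slc18a2 differed by 0.026 (standard error 0.26) and that of Slc10a4 by -0.11 (standard error 0.20) on the log2 scale. The SD of the log2 ratio within a group was 0.23 and 0.10 for Ddc and 0.27 and 0.21 for Slc10a4, in littermate controls and MitoParks, against 0.49 and 0.70 for Slc6a3. The ratios of Ddc, Gch1, Slc18a2, Drd2, Maoa and Maob were each lowest in littermate control 3, the mouse in which Th was highest. Those of Maoa and Maob were 0.694 and 0.381 there, while that of Slc10a4 was highest there, at 0.309.

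The reference could also be any of the other 8 genes, a comparison chosen after the data were seen. Slc6a3 relative to each of the 8 was lower in every MitoPark than in every littermate control, and the 8 ratios share the Slc6a3 values. Since Slc6a3 by itself already separated the groups, these ratios largely repeat that result and are no separate evidence. The share of all genes that would separate the groups as reference is not given here. The log2 difference ranged from -2.02 with Gch1 as reference to -1.39 with Slc10a4. The ratio to Slc10a4 varied least within groups, at 5.87, 6.25 and 7.78 in littermate controls and 1.68, 3.32 and 2.87 in MitoParks. The ratio to Maob separated the groups by the smallest margin, 0.763 in littermate control 2 against 0.744 in MitoPark 2. Relative to the mean of the DAergic markers outside the 9 genes, the log2 difference was -1.24.

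**Figure D3:**
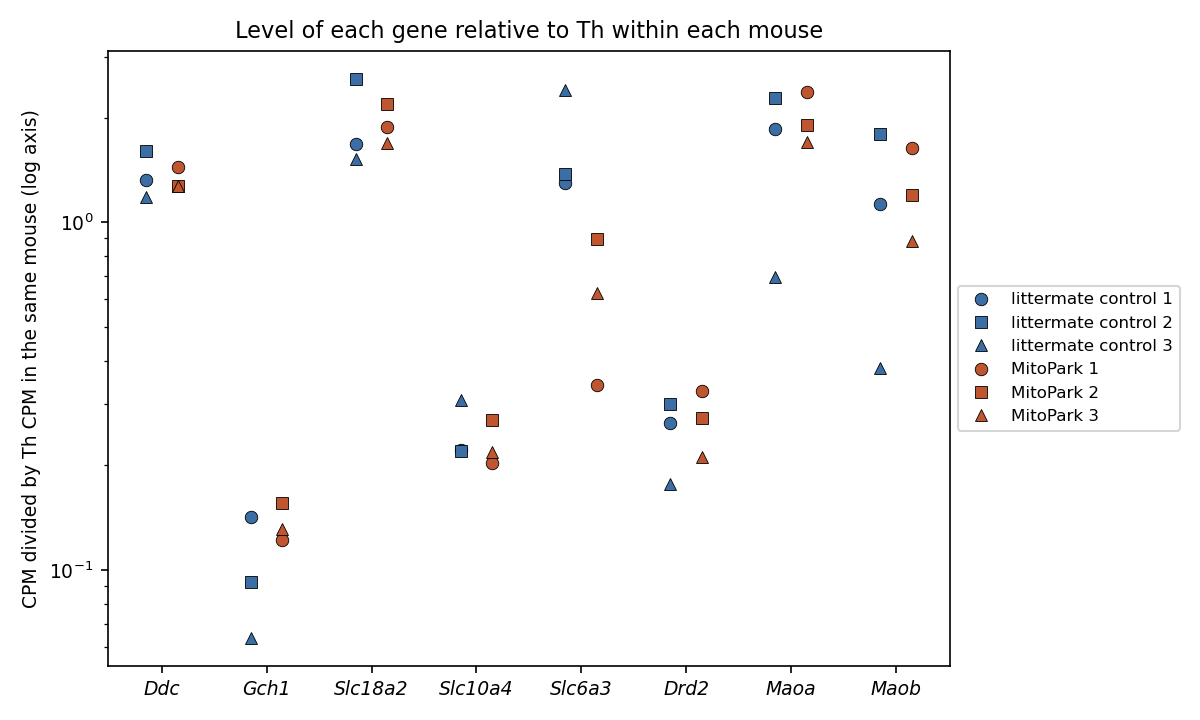
Level of 8 genes divided by the level of Th in the same mouse, on a log axis, with littermate controls in blue and MitoParks in orange and a symbol for each mouse number. For Slc6a3 the MitoParks lie at 0.341 to 0.895 and the littermate controls at 1.3 to 2.4, whereas for the other 7 genes the groups overlap.

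Drd2, the D2 receptor, acts on DAergic neurons as an autoreceptor that curbs firing and release, and is also made by a class of striatal neurons. Its levels in littermate controls were 14.7, 14.2 and 28.1 CPM, and those in MitoParks were 12.8, 15.6 and 13.8 CPM. MitoPark 2 was above littermate controls 1 and 2, and the log2 fold change was -0.44 (95% interval -1.01 to 0.14, unadjusted p = 0.122). It was -0.039 when littermate control 3 was left out. The 6 striatal projection neuron markers, none of which passed the cutoffs, summed to 162 CPM in littermate control 3 and to 202 to 252 CPM in the other mice, so they were lowest where Drd2 was highest. Of the other dopamine receptors, Drd1 (listed as Drd1a) and Drd5 were tested, at log2 fold changes of -0.15 each (unadjusted p = 0.513 and 0.672). Drd3 had 1 to 10 counts per mouse and Drd4 had 1 or 0.

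For breakdown, Maoa encodes monoamine oxidase A, which oxidizes dopamine inside neurons. Littermate controls had 104, 108 and 111 CPM, and MitoParks had 92.2, 109 and 111 CPM. MitoPark 1 alone lay below the littermate controls. Maoa had the narrowest interval of the 9 genes, with a fold of 0.969 and a 95% interval of 0.82 to 1.15 (unadjusted p = 0.685).

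Maob, the form abundant in astrocytes and serotonin neurons, reached 63.0, 85.4 and 60.7 CPM in the littermate controls, against 63.9, 68.6 and 57.9 CPM in the MitoParks. Its highest mouse was littermate control 2, not littermate control 3. The fold was 0.91, with a 95% interval of 0.723 to 1.15 (unadjusted p = 0.383). Maoa and Maob both lie on the X chromosome, and with a term for libraries holding Y-linked reads their log2 fold changes were -0.045 and -0.13. The 5 astrocyte markers summed to 1260 to 1620 CPM in littermate controls and 1440 to 1870 CPM in MitoParks.

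The other 7 breakdown genes were all tested and none passed the cutoffs, with a median log2 fold change of 0.012. Aldh1a1, an aldehyde dehydrogenase of ventral nigral DAergic neurons, gave 962, 1659 and 3754 counts across littermate controls, against 839, 1815 and 1688 across MitoParks, and like Th was highest in littermate control 3. Its log2 fold change was -0.40 (standard error 0.40, unadjusted p = 0.342). Akr1b3 was at -0.14 (unadjusted p = 0.715), with its lowest value, 92.2 counts, in MitoPark 3.

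Of 6 other monoamine transporter genes, 3 were tested. Slc6a4, the serotonin transporter, passed the cutoffs as higher in MitoParks (unadjusted p = 0.0213), as did 0.378% of all genes tested. It had 83 counts in MitoPark 3 and between 0 and 2 in the other 5 mice, and without MitoPark 3 it no longer passed the filter on low counts. Slc29a4 and Slc22a3, which carry monoamines with low affinity, were at log2 fold changes of -0.09 and 0.12 (unadjusted p = 0.497 and 0.692). Without MitoPark 3 the log2 fold change went from -0.67 to -0.81 for Ddc and from -0.57 to -0.62 for Slc18a2. For Gch1 it went from -0.0038 to -0.12. Serotonin neurons also use these genes. The log2 fold change of Th, which serotonin neurons do not use, went from -0.70 to -0.86. The part of serotonin neurons in these shifts was not tested.

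The 8 transcription factor genes that set up and keep the DAergic programme were all tested. Foxa1 passed the cutoffs as lower in MitoParks, from 83, 187 and 238 counts across littermate controls against 41, 122 and 94 across MitoParks (log2 fold change -0.84, standard error 0.37, unadjusted p = 0.0488). The groups overlapped, and without littermate control 3 its log2 fold change was -0.53 (unadjusted p = 0.158). Pitx3 (-2.22, unadjusted p = 0.0509) and Nr4a2 (-0.92, unadjusted p = 0.0522), a known activator of Th and Slc6a3, missed the threshold. The median of the 8 was -0.53, with 7 below 0, and without littermate control 3 the median of those tested, which no longer included Pitx3, was -0.091, with 4 below 0.

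Levels were compared between genes only per kilobase of the longest coding GENCODE M21 transcript. In littermate controls the order of CPM per kilobase was Ddc (55.6 ± 32.2), Slc6a3 (50.2 ± 52.5), Th (44.8 ± 32.0), Slc18a2 (40.3 ± 20.8), Maob (28.9 ± 5.66), Maoa (25.8 ± 0.847), Slc10a4 (11.4 ± 10.4), Drd2 (7.47 ± 3.1) and Gch1 (2.69 ± 1.05), as mean ± SD of 3 mice. Neighbours in this order differed by less than the larger of their SDs, except Maoa from Slc10a4 and Drd2 from Gch1. The place of Slc6a3 came from littermate control 3, since in littermate controls 1 and 2, at 21.0 and 18.9 CPM per kilobase, it was the sixth of the 9. By the mean of MitoParks it was also the sixth, at 10.1 ± 5.65 CPM per kilobase. It followed Ddc (34.9 ± 6.73), Th (27.6 ± 6.93), Slc18a2 (27.2 ± 7.02), Maob (26.3 ± 2.23) and Maoa (25.0 ± 2.48), of which the last 4 differed by less than the SD of Th or Slc18a2. Slc10a4 (5.94 ± 1.91), Drd2 (5.52 ± 0.549) and Gch1 (2.67 ± 0.833) came after it. In littermate control 3 Slc6a3 was the most abundant of the 9 genes per kilobase, at 111, and in MitoPark 1 it was at 3.84, level with Slc10a4 at 3.76.

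**Figure D4:**
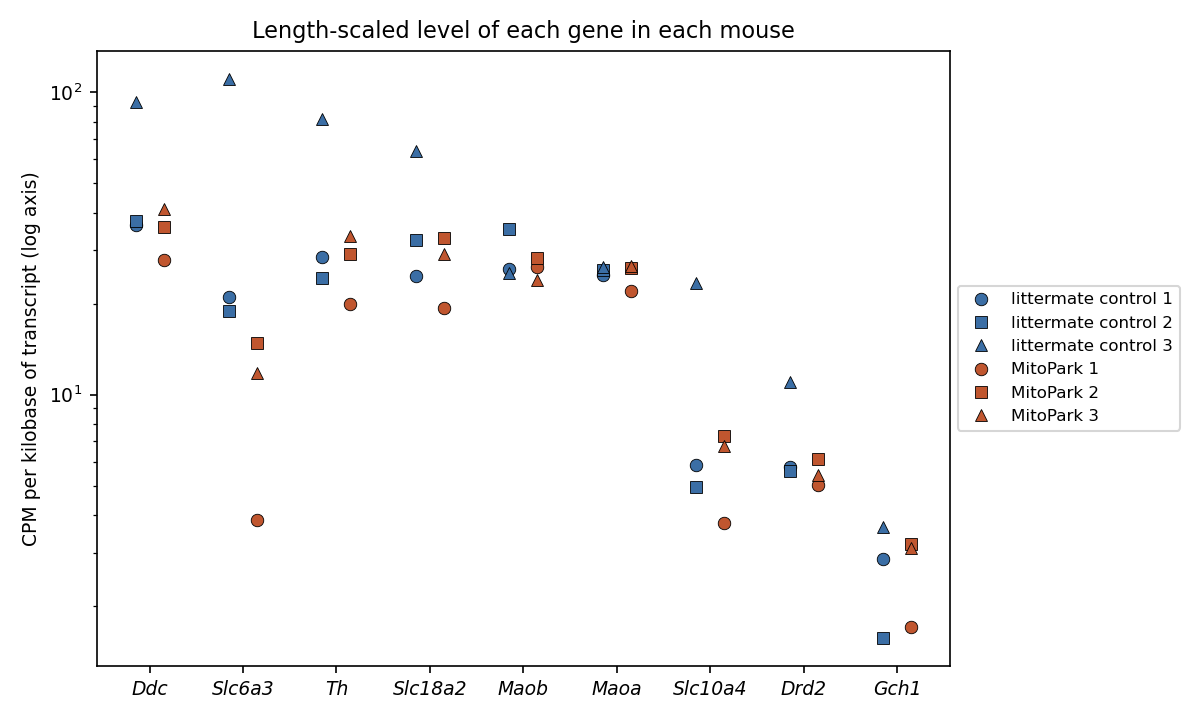
CPM per kilobase of transcript of the 9 genes in each mouse, on a log axis, ordered by the mean of littermate controls, with littermate controls in blue and MitoParks in orange. Slc6a3 spans 3.84 to 111, the widest range of the 9, and Maoa stays between 22.1 and 26.6.

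The genes also differed in how they varied among mice of 1 group. In littermate controls the coefficient of variation was 105% for Slc6a3, 91.1% for Slc10a4, 71.3% for Th, 58.0% for Ddc and 51.5% for Slc18a2. It was 41.5% for Drd2, 39.1% for Gch1, 19.6% for Maob and 3.29% for Maoa. In MitoParks the range was 8.47% for Maob to 55.7% for Slc6a3. Littermate control 3 was the highest mouse for 7 of the 9 genes and MitoPark 1 the lowest for 7 of the 9.

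As a description over 6 mice that share these libraries, Pearson's r of log2 levels with Th was 0.991 for Slc10a4, 0.984 for Ddc, 0.956 for Drd2, 0.921 for Slc18a2, 0.900 for Slc6a3, 0.734 for Gch1, 0.589 for Maoa and -0.409 for Maob. Over the other 5 mice, with littermate control 3 left out, the same values were 0.936, 0.874, 0.593, 0.621, 0.627, 0.859, 0.844 and -0.384. Among all genes tested, the 5 most like Th were Slc10a4, 4933431E20Rik, Ddc, Tcf7l2 and Nacc1, with r from 0.978 to 0.991. Those most like Slc6a3 were Pitx3, Mospd2, Satb1, Anxa1 and Glmn (0.972 to 0.983), and those most like Maob were Fam84a, Synpr, Golph3l, Gpr151 and Hist2h2aa1 (0.977 to 0.988). With littermate control 3 left out, 0 of the 5 genes most like Th were again among its 5.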

How the data were processed

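RNA-seq was done on the SN of 3 MitoParks and 3 littermate controls. By the methods for the SN libraries, reads were mapped to UCSC transcripts with Bowtie2 2.1.0 and levels were estimated with RSEM 1.2.15. Another section of the methods names the aligner HISAT2 and levels scaled by transcript length. The deposited values are expected counts per gene, without normalization, by the submitters' processing notes. The notes list only a human build, so positions from the mouse table are given for printed sequences alone. Columns headed as treated were read as the transgenic mice of the same number, and 0 columns belonged to no sample.

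Expected counts were rounded, and a gene was tested where its mean CPM exceeded 1 in either group. Groups were compared over the whole table in edgeR 4.0.16 (R 4.3.3) with TMM normalization, a quasi-likelihood fit and Benjamini-Hochberg adjustment, with the cutoffs the methods give for the SN libraries, p under 0.05 (taken here as unadjusted) and a fold above 1.5. A general section of the methods names an adjusted p instead, which no gene met here. Standard errors are the log2 fold change divided by the root of F. Ratios used log2(CPM + 0.1) and exact two-sided permutation tests over mice (scipy 1.17.1). The procedure was tested on simulated data. Nothing states that the mice are separate litters, so p-values measure the spread between these samples, and intervals rest on 3 mice per group. No pair of same-group libraries agreed within sampling noise (chi-square of at least 10 per degree of freedom). Alternatives used DESeq2 1.42.0 and limma 3.58.1 among others.

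The genes named are the 9, Tfam, those called or with the 3 smallest p-values in 5 lists of related genes, and the 5 genes most alike in pattern to Th, Slc6a3 and Maob, and some listed genes are not reported here by name. The genes and lists were chosen with earlier results of these data known.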

Additional observations from a re-analysis of the deposited data

How the results depend on the processing

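Slc6a3 kept its direction in all 19 alternatives and was called in 18, the exception being robust dispersion, where its unadjusted p was 0.0859. The count of the 9 genes called was 1 in the quasi-likelihood fit. It was 2 with the likelihood ratio test, without a filter on low counts and in the 4 libraries without Y-linked reads, 0 with robust dispersion, and 0 with an adjusted p below 0.05 as the cutoff, and it ranged from 1 to 5 with 1 mouse left out. The 5 were Th, Ddc, Slc6a3, Drd2 and Slc10a4 without littermate control 2, and without littermate control 1 the 3 were Ddc, Slc18a2 and Slc6a3.

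The count of called genes in the 5 related lists was 2. It was 4 with the exact test, the likelihood ratio test, no filter, the replicate block and the 4 libraries without Y-linked reads, 1 with limma-voom, with CPM above 1 in 3 samples and with a term for Y-linked reads, and 0 with robust dispersion and with an adjusted p as the cutoff. With 1 mouse left out it ranged from 0 to 3, being 0 without MitoPark 3 and 1 without littermate control 3 or MitoPark 1. Without MitoPark 3, Slc6a4 did not pass the filter on low counts and Foxa1 had an unadjusted p of 0.0704 by edgeR's quasi-likelihood test. Without littermate control 3, Slc6a4 stayed called (unadjusted p = 0.0272) and Foxa1 did not (unadjusted p = 0.158). Causes of the shifts beyond these calls were not tested.

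Log2 fold changes changed sign for Th (0.066) and Slc10a4 (0.14) without littermate control 3, for Maoa without MitoPark 1 (0.044) and for Maob without littermate control 2 (0.038). Gch1, near 0, changed sign with limma-voom (0.05), total counts (0.012), the replicate block (0.021), and without littermate control 1 (0.043), littermate control 3 (0.29) or MitoPark 1 (0.24). Same-numbered mice share only a number. Their deviations from the group means correlated at 0.307, -0.0738 and 0.244. The replicate block left 1 of the 9 genes called, Slc6a3 (log2 fold change -2.01, adjusted p = 0.653 by edgeR). With the block, Th (-0.52), Ddc (-0.55) and Slc18a2 (-0.49) missed only the cutoff on fold. Their unadjusted p-values by edgeR's quasi-likelihood test were 0.0352, 0.00819 and 0.0179. With 1 mouse left out, log2 fold changes ranged from -1.0 to 0.066 for Th, -0.28 to 0.29 for Gch1, -0.094 to 0.044 for Maoa, -0.23 to 0.038 for Maob and -1.3 to 0.14 for Slc10a4. The log2 difference of the Slc6a3 to Th ratio stayed between -2.02 and -1.12 in all alternatives, the block leaving it at -1.5 by construction. Alternatives on Y-linked reads and on other reference genes were chosen after seeing the data.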
